A study of Sus scrofa with 6 samples.

Results

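Goblet cells are the mucus-secreting cells of the intestinal epithelium. They store gel-forming mucin in granules and release it to form the layer that separates microbes from the gut wall. In the newborn ileum this layer is laid down while the gut meets milk and its first microbes. Mucin polymers are folded and disulfide-bonded in the endoplasmic reticulum (ER), heavily O-glycosylated in the Golgi, and packed into granules whose release is controlled by small GTPases of the RAB family. In the data described here, goblet cells were barcodes selected on measured values, namely at least 10 unique molecular identifiers (UMIs, each a counted transcript) of MUC2, FCGBP and CLCA1 together. MUC2 is the gel-forming mucin of the intestine, FCGBP is a mucin-like protein of the mucus, and CLCA1 is a secreted goblet cell protease. A barcode also needed at least 1000 UMIs, at least 500 genes, under 25% of UMIs from mitochondrial genes, fewer than 10 UMIs of the hormone granule proteins CHGA and CHGB, and at most 1 UMI of PTPRC, the leukocyte marker CD45. Of 71547 barcodes within the quality limits, 688 met the rule. They comprised 536 barcodes of day 0, 134 of day 1, 17 of day 3, 1 of day 7, and 0 of days 14 and 21.

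The samples were 6 droplet libraries of dissociated ileum of male piglets, 1 library for each age of 0, 1, 3, 7, 14 and 21 days. The methods of the study name Large White piglets from 3 sows, 5 piglets an age, and do not state how the cells of the piglets of an age were combined, and they name no treatment or genotype that set the ages apart. The submitters' design text mentions cecum, and the label of each sample mentions ileum. Age and library therefore cannot be told apart, no difference between ages was tested, and counting intervals at a single age cover counting error only.

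Goblet cells were set against the other epithelial barcodes of the same library, which met the same limits, held at least 5 UMIs of EPCAM, KRT8 and VIL1 together and at most 1 of PTPRC, and were not goblet cells. There were 2010, 723 and 57 of these at days 0, 1 and 3, then 154, 27 and 1 at days 7, 14 and 21. Goblet cells made up 21.1% of both classes together at day 0 (536 of 2546, exact Clopper-Pearson 95% interval 19.5 to 22.7%), 15.6% at day 1 (134 of 857, 13.3 to 18.2%) and 23.0% at day 3 (17 of 74, 14.0 to 34.2%). The interval of day 3 covered the shares of days 0 and 1, and it rested on 17 barcodes. The order of the ages depended on the limits. With a mitochondrial limit of 10% the shares were 24.9%, 18.0% and 18.6%, and with 0 UMIs of PTPRC 20.8%, 15.1% and 20.6%, so that day 0 had the highest. The day 3 shares rested on 8 of 43 (8.39 to 33.4%) and 13 of 63 barcodes (11.5 to 32.7%). Both intervals covered the shares of days 0 and 1. With mucin at 1% or more of a barcode's UMIs, a limit chosen after seeing the data, the shares were 15.9%, 8.75% and 6.76%, so that day 3 had the lowest, and with barcodes also thinned to 1000 UMIs they were 15.6%, 8.98% and 6.76% (5 of 74 at day 3, 2.23 to 15.1%). At day 7 the share was 0.645% (1 of 155, 0.0163 to 3.54%), and at day 14 it was 0 of 27, which allows a share of up to 11.11% by 3 counts of the total and up to 12.8% by the exact interval. As a share of all barcodes within the quality limits, goblet cells went from 5.56% at day 0 to 1.30% at day 1 and 0.161% at day 3, while the other epithelial barcodes went from 20.8% to 7.00% and 0.541%, and then to 1.29%, 0.172% and 0.00747% at days 7, 14 and 21. The single barcode of day 7 held 12 mucin UMIs and no UMI of EPCAM, KRT8 or VIL1, so the description below concerns days 0, 1 and 3. Values written in threes follow the order day 0, day 1, day 3.

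**Figure D1:**
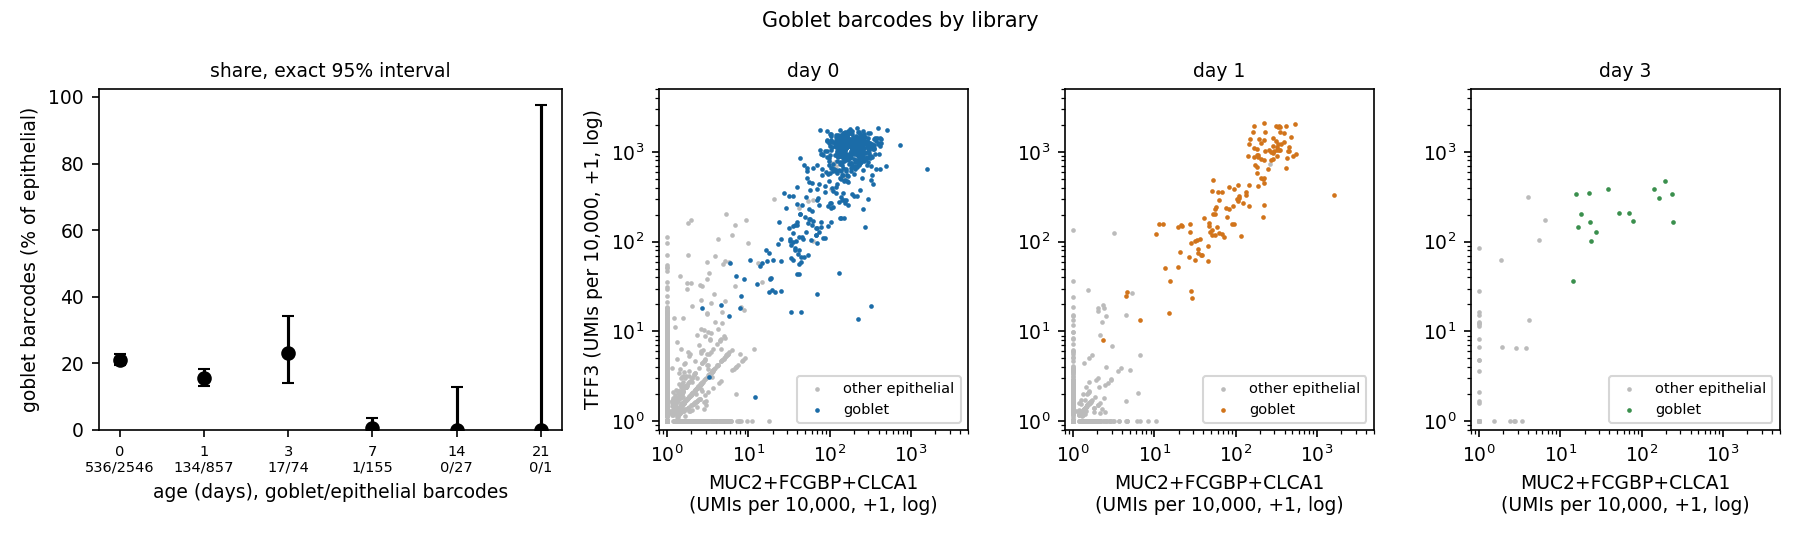
The left panel shows goblet cells as a percentage of epithelial barcodes in each of the 6 libraries, with exact 95% intervals and the counts under each age in days. The other panels plot TFF3 against MUC2, FCGBP and CLCA1 together, both as UMIs per 10000 plus 1 on log axes, for each goblet cell (colored) and other epithelial barcode (gray) of days 0, 1 and 3. The shares lie between 15.6% and 23.0% at days 0, 1 and 3 and are 0.645% or 0% after that with the limit of 10 mucin UMIs, and goblet cells sit at the upper right, with medians of 958, 363 and 208 TFF3 UMIs per 10000.

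The mucin values that chose the cells are given as a description. The lowest, median and highest number of UMIs of MUC2, FCGBP and CLCA1 per goblet cell were 11, 138.5 and 723 at day 0, 11, 238 and 725 at day 1, and 13, 42 and 314 at day 3. With 10 to 12 UMIs there were 2 barcodes at day 0, 2 at day 1, 0 at day 3 and 1 at day 7, and just below the limit, with 7 to 9 UMIs, there were 6, 6, 1 and 0. Mucin took a median of 1.55%, 1.32% and 0.382% of a goblet cell's UMIs, in cells with a median of 8099.5, 16741 and 12743 UMIs in all. RNA free in the suspension, read from barcodes of 100 UMIs or fewer, held mucin at 0.107%, 0.0343% and 0.00322%. The mucin share was at or below that level in 10, 1 and 0 goblet cells and under 0.5% in 68, 36 and 9. CLCA1 gave 54.6%, 56.6% and 39.5% of the mucin UMIs, MUC2 33.2%, 27.3% and 46.7%, and FCGBP 12.1%, 16.1% and 13.8%. All 3 genes were present in 530 of 536, 127 of 134 and 16 of 17 goblet cells.

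TFF3, the trefoil peptide that goblet cells secrete with mucin, is a marker of these cells that the rule did not use. It had at least 1 UMI in every goblet cell of days 0, 1 and 3 and at least 10 in 529, 134 and 17 of them. Its median was 958, 363 and 208 per 10000 UMIs of a cell. PTPRC-bearing barcodes (at least 2 PTPRC UMIs, fewer than 5 of EPCAM, KRT8 and VIL1) should lack the gene. A TFF3 UMI was present in 47.4%, 13.8% and 3.69% of them, and 10 in 0.127%, 0.0418% and 0%. Whether these UMIs came from free RNA or from barcodes of more than 1 cell was not tested. With each barcode thinned to 1000 UMIs, a TFF3 UMI was present in 98.7, 98.5 and 100% of goblet cells and 16.8, 3.78 and 0.872% of PTPRC-bearing barcodes, whose median depth was 3612, 4249 and 4725 UMIs. SPDEF or ATOH1, the transcription factors of the goblet and secretory lineage, had a UMI in 500, 131 and 16 goblet cells (93.3%, 97.8% and 94.1%). SPDEF had a UMI in 87.3, 96.3 and 88.2% of goblet cells and 0.572, 0.355 and 0.123% of PTPRC-bearing barcodes, and ATOH1 in 64.6, 52.99 and 76.5% and 0.0954, 0.105 and 0.123%. Thinned to 1000 UMIs, the shares of SPDEF were 33.4, 34.3 and 17.6% and 0.159, 0.0418 and 0.0545%.

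Some goblet cell barcodes also held RNA of other lineages. At least 50 of each 10000 UMIs came from the absorptive enterocyte list in 63, 43 and 1 goblet cells, at least 10 UMIs of the crypt gene OLFM4 were found in 43, 16 and 0, and at least 5 UMIs of B lineage genes in 18, 3 and 1. These barcodes were deep: those rich in enterocyte genes had a median of 22077 and 38863 UMIs at days 0 and 1 and those rich in OLFM4 52571 and 61631, against 7431 and 11193 in goblet cells with none of the 3 features. The latter, called lean goblet cells below, numbered 420, 73 and 15 (78.4%, 54.5% and 88.2%). These limits were set after the values had been seen. No doublet caller was run, and whether these barcodes held more than 1 cell was not tested. Results that touch on other lineages are given in lean goblet cells as well. The other epithelial barcodes were not selected in this way. Lower values of enterocyte, crypt or B lineage RNA in lean goblet cells were therefore in part fixed by the selection. No goblet cell barcode was a goblet cell in a second library, and 8 of 688 (1.163%) recurred within the quality limits of another library. Of 70958 distinct barcode sequences of any class within the quality limits, 589 (0.8301%) occurred in more than 1 library.

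To find which genes separated goblet cells from the rest of the epithelium, UMIs were summed per library and class and compared within the libraries of days 0, 1 and 3 by edgeR's quasi-likelihood test with Benjamini-Hochberg adjustment, which gave every adjusted p below. Each SE is the size of the log2 fold change divided by the square root of that test's F statistic. It is not the standard error of the 3 library ratios. Levels are UMIs per 1000000 of a class's summed UMIs (CPM). Of 11665 genes tested outside the rule, 862 (7.39%) were higher and 1077 (9.23%) lower in goblet cells at an adjusted p under 0.05. With 3 libraries the day 0 library weighed heavily, and the counts were 229 and 214 without it, 399 and 446 without day 1, and 1482 and 1731 without day 3. Lean goblet cells gave 866 higher and 995 lower genes of 9985 tested, and DESeq2 gave 410 and 548. Without the library as a block they were 25 and 6. The other epithelial barcodes were not the same mix in each library. In them the absorptive enterocyte list took 163, 322 and 15.8 of each 10000 UMIs. The enteroendocrine list took 129, 51.1 and 151, and the crypt list 5.14, 12.7 and 31.8. The part of this mix in differences between libraries was not tested. All genes below were measured in the same barcodes as the rule genes, and the lists were assembled with earlier results of these data known, so their counts are read against 7.39% and 9.23% and against a median log2 fold change of -0.00372 over all genes.

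Secreted products were more often higher than lower in goblet cells. Of 14 list members tested, 8 were higher and 2 lower, and the median log2 fold change was 2.38. TFF3 stood at 48775, 30215 and 22463 CPM in goblet cells against 505, 131 and 1849.8 CPM in the other epithelial barcodes, a log2 fold change of 6.18 ± 0.63 (SE, adjusted p = 1.3e-05). AGR2, the ER disulfide isomerase that mucin folding needs, was at 7829.5, 3543 and 24356 CPM against 102, 59.9 and 766 CPM, a log2 fold change of 5.80 ± 0.29 (SE, adjusted p = 2.05e-08). RETNLB, the resistin-like molecule that goblet cells secrete against bacteria, was at 2813, 1223 and 12099.9 CPM against 52.3, 2.46 and 579 CPM (log2 fold change 6.25 ± 0.64, SE, adjusted p = 1.41e-05). The summed levels of these genes were over 10 times higher in goblet cells in each library. Single barcodes of both classes overlapped, and at day 0 AGR2 ran from 0 to 592 per 10000 UMIs in goblet cells and from 0 to 216 in the other epithelial barcodes. SPINK4, a Kazal-type inhibitor peptide of goblet cells, was at 6350.4, 3154 and 8392 CPM against 332, 577 and 394 CPM (log2 fold change 3.80 ± 0.39, SE, adjusted p = 1.21e-05). LYPD8, which keeps flagellated bacteria off the epithelium, rose by 2.62 (adjusted p = 0.000253) and WFDC2, a secreted protease inhibitor, by 2.13 (adjusted p = 3.15e-05) on the log2 scale, the latter without its direction at day 3, where goblet cells held 9.21 CPM against 16.2. TFF2, a trefoil peptide better known from stomach, was low but higher (8.68, 13.2 and 0 CPM against 0.259, 0.137 and 4.06 CPM, log2 fold change 5.14 ± 0.59, SE, adjusted p = 3.77e-05), and was at 0 in goblet cells of day 3. REG4, a regenerating family lectin of secretory cells that was outside the list and named after its values were seen, was at 7967, 2194 and 13228 CPM against 544, 284 and 2165 CPM (log2 fold change 3.23 ± 0.27, SE, adjusted p = 1.91e-06).

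Other secreted genes of goblet cells gave mixed values. GUCA2A, which encodes guanylin, the secreted peptide that drives fluid secretion through guanylate cyclase C, stood at 1793, 640.1 and 15016 CPM in goblet cells against 737, 1165 and 2211 CPM, and its ratios differed in sign between libraries (1.29, -0.88 and 3.02 on the log2 scale), with a log2 fold change of 1.16 ± 0.53 (SE, adjusted p = 0.168). In lean goblet cells it passed the test at 1.81 (adjusted p = 0.0149), and it was also called higher without day 0 and without day 1. GUCA2B, the related uroguanylin, gave 0.20 (adjusted p = 0.88), and was called higher without day 1 but lower with a mitochondrial limit of 10% and with thinning. ZG16, a lectin of goblet cell granules in other mammals, had 0 UMIs in goblet cells of all 3 ages, which allows up to 3 of 8175207, 3874460 and 217109 UMIs. DMBT1, a scavenger glycoprotein of mucosal surfaces, and CLCA4 were lower in goblet cells, at -1.62 (adjusted p = 0.00597) and -1.77 (adjusted p = 0.00121), and DMBT1 lost its call under DESeq2.

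Among the other mucins, 10 lay outside the rule and 4 passed the filter on low counts. MUC13, a membrane mucin of all epithelial cells, was at 446, 844 and 101 CPM in goblet cells and 578, 1254 and 134 CPM in the others (log2 fold change -0.40, adjusted p = 0.294). MUC20, another membrane mucin, was lower, at -2.40 (adjusted p = 2.1e-05), in 3 of 3 libraries. MUC1 was higher by 1.95 (adjusted p = 0.00867) on 58 UMIs, but had none in goblet cells of day 3, and lost its call without day 1 and under DESeq2. MUC5AC, the gel-forming mucin of stomach and airways, was removed by the filter on low counts, with 23, 14 and 0 UMIs in goblet cells against 1, 0 and 0 in the other epithelial barcodes, and was called higher without that filter, without day 3 and with a mitochondrial limit of 10%.

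**Figure D2:**
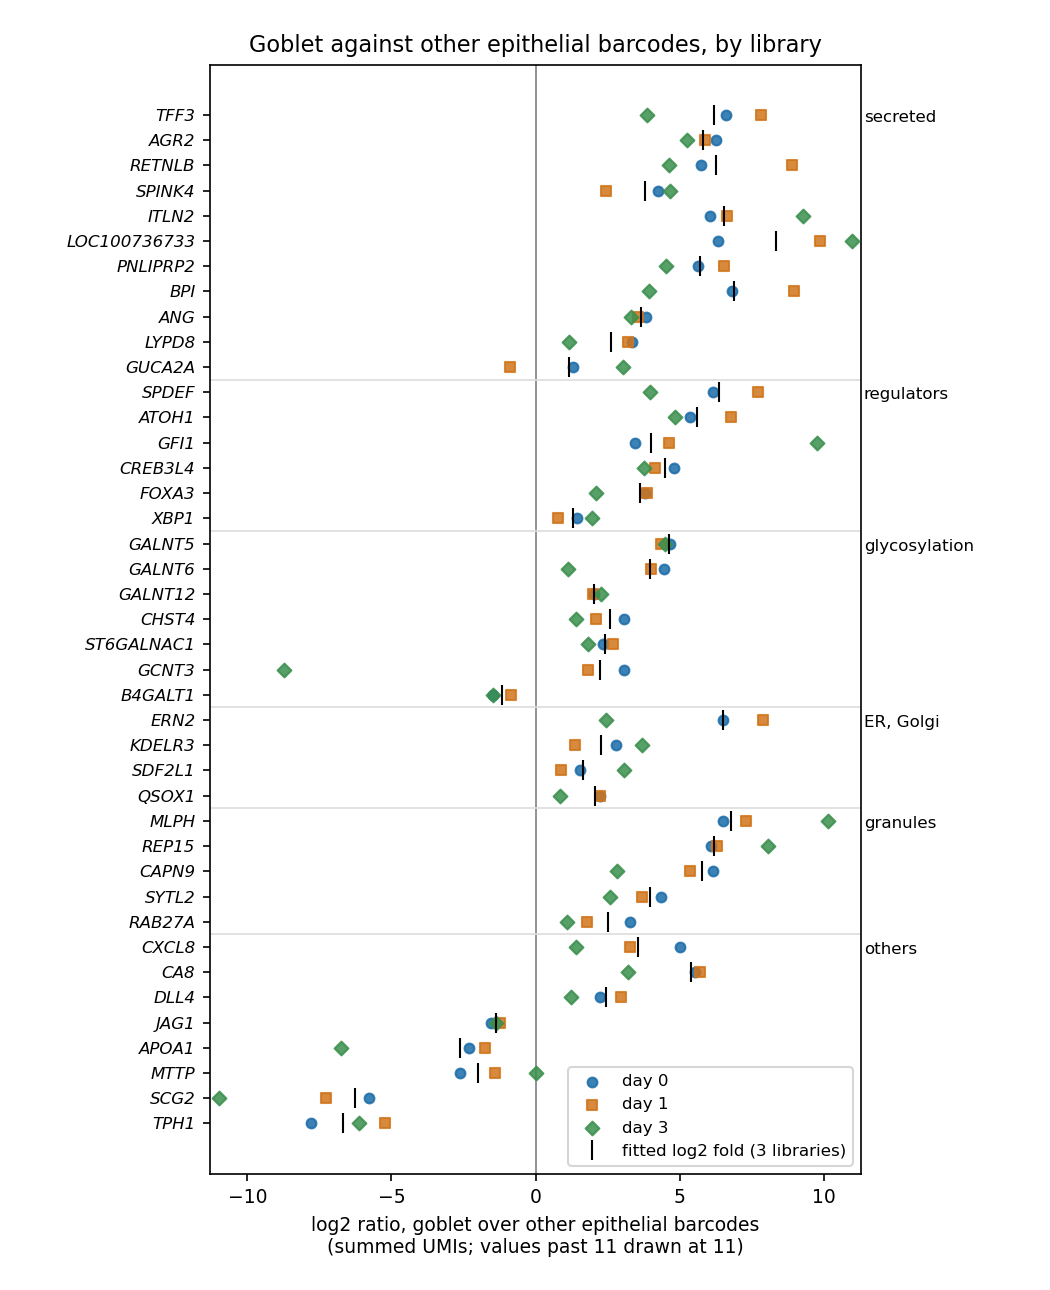
Log2 ratios of summed UMIs, goblet cells over the other epithelial barcodes of the same library, for named genes, with a circle, square and diamond for days 0, 1 and 3, a bar for the fitted log2 fold change, and values past 11 drawn at 11. Most secreted products, regulators and granule genes lie right of 0 at all 3 ages, while GUCA2A lies left of 0 at day 1 (-0.88), GCNT3 far left at day 3, where goblet cells had 0 UMIs, and SCG2 and TPH1 far left at all 3 ages.

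Genes named for Paneth cells, the antimicrobial cells at the crypt base, were higher in goblet cells for 5 of the 6 tested and lower for 1. Of the others on the list, MMP7 had 0 UMIs in goblet cells and HABP2 8. PLA2G2A, a secreted bactericidal phospholipase, was at 76.2, 63.8 and 2027 CPM against 2.65, 0.137 and 109.6 CPM (log2 fold change 5.28 ± 0.45, SE, adjusted p = 2.58e-06), but few cells carried it at days 0 and 1. It had 10 or more UMIs in 4 of 536, 2 of 134 and 5 of 17 goblet cells, which held between 48 and 315, 78 and 168, and 12 and 233 UMIs. The median of TFF3 in these carriers was 120, 65.0 and 168 per 10000 UMIs, below that of all goblet cells at each age. ANG, a ribonuclease with antimicrobial activity, was at 163, 138 and 170.4 CPM against 11.3, 11.5 and 20.3 CPM (log2 fold change 3.67 ± 0.20, SE, adjusted p = 3.9e-08), and PNLIPRP2, a lipase of the pancreatic family, at 483, 236 and 668 against 9.73, 2.46 and 34.5 CPM (5.70 ± 0.33, SE, adjusted p = 5.75e-08). Both were higher in 3 of 3 libraries. LYZ, lysozyme, was at 36.7, 28.4 and 23.03 CPM against 3.14, 7.52 and 32.5 CPM (log2 fold change 2.48 ± 0.38, SE, adjusted p = 0.000469), lost its call without day 0, and no goblet cell held more than 9 UMIs of it. REG3G, an antibacterial lectin, was lower, at -1.29 (adjusted p = 0.0475), a call that ended without day 0, in lean goblet cells (adjusted p = 0.191), under DESeq2 and in several other settings. The share of barcodes with 10 or more REG3G UMIs was 0.746, 54.5 and 0% in goblet cells. In the other epithelial barcodes it was 3.53, 38.5 and 1.75%, so by this share goblet cells were higher at day 1.

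Enzymes that build mucin glycans were more often higher than lower in goblet cells. Of 40 tested members of the O-glycosylation and sulfation list, 17 were higher and 3 lower, and in lean goblet cells 18 were higher and 3 lower of 36. Without day 0 the counts were 10 and 0 of 36, and under DESeq2 10 and 2. The median log2 fold change was 0.409 in all goblet cells and 0.707 in lean ones. The polypeptide GalNAc transferases, which put the first sugar on mucin, differed among themselves. GALNT5 was at 43.2, 15.2 and 78.3 CPM against 1.65, 0.683 and 4.06 CPM (log2 fold change 4.63 ± 0.26, SE, adjusted p = 3.9e-08), GALNT6 at 12.2, 10.8 and 18.4 against 0.517, 0.615 and 10.2 CPM (3.99 ± 0.45, SE, adjusted p = 3.14e-05), and GALNT12 at 62.5, 75.4 and 82.9 against 15.3, 18.8 and 20.3 CPM (2.04 ± 0.18, SE, adjusted p = 3.04e-06). GALNT7 gave 1.72 (adjusted p = 2.47e-05), while the widely expressed GALNT1 and GALNT2 gave -0.15 (adjusted p = 0.654) and -0.36 (adjusted p = 0.216). GCNT3, which branches mucin cores, was at 50.9, 65.8 and 0 CPM against 6.08, 18.5 and 26.4 CPM (log2 fold change 2.23 ± 0.38, SE, adjusted p = 0.000889), with 0 UMIs in goblet cells of day 3, and C1GALT1, the core 1 synthase, gave 0.87 (adjusted p = 0.0114). Both lost their call without day 0 and under DESeq2. B4GALT1, a galactosyltransferase of many glycans, was lower, at -1.16 (adjusted p = 0.00135), and ST3GAL1, which caps core 1 with sialic acid, was lower, at -0.79 (adjusted p = 0.013). Neither call held without day 0.

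Of the other genes on the list, ST6GALNAC1, which adds sialic acid to the first mucin sugar, was at 46.97, 25.04 and 78.3 CPM against 9.18, 3.83 and 26.4 CPM (log2 fold change 2.41 ± 0.21, SE, adjusted p = 2.58e-06), ST6GALNAC2 gave 2.97 (adjusted p = 6.46e-05), and GNE and NANS, which make sialic acid, gave 2.15 (adjusted p = 1.63e-05) and 1.39 (adjusted p = 0.000241). These 4 were higher in 3 of 3 libraries. CMAS, which activates sialic acid, and its transporter SLC35A1 gave 0.14 (adjusted p = 0.718) and 0.37 (adjusted p = 0.281). CHST4, a sulfotransferase of mucin GlcNAc, was at 20.2, 22.5 and 4.61 CPM against 2.36, 5.19 and 2.03 CPM (log2 fold change 2.60 ± 0.28, SE, adjusted p = 2.01e-05), and FUT2, the secretor fucosyltransferase, gave 2.25 (adjusted p = 0.00116) with goblet cells at 9.21 CPM and the others at 12.2 CPM at day 3. ST6GAL2, a sialyltransferase outside the list and among the 10 highest ratios, was at 38.7, 28.1 and 27.6 CPM against 0.356, 0.205 and 0 CPM (6.81 ± 0.31, SE, adjusted p = 1.14e-08).

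Genes of the ER were more often higher than lower, though how many were called depended on the libraries and the scaling. In the protein folding and stress list 17 of 37 were higher and 0 lower (21 and 0 in lean goblet cells), with a median log2 fold change of 0.718. In the list of ER entry and ER to Golgi transport 16 of 57 were higher and 2 lower (24 and 2 in lean goblet cells), with a median of 0.517. The folding genes took 155, 114 and 379 of each 10000 UMIs in goblet cells and 51.9, 62.9 and 65.8 in the other epithelial barcodes, AGR2 included. ERN2, the epithelial form of the stress sensor IRE1, had the largest change of the list, at 42.1, 29.4 and 36.8 CPM against 0.42, 0.0683 and 8.12 CPM (log2 fold change 6.51 ± 0.45, SE, adjusted p = 3.1e-07), whereas its ubiquitous paralog ERN1 was at 7.58, 4.9 and 9.21 against 5.53, 7.65 and 14.2 CPM (-0.01 ± 0.32, SE, adjusted p = 0.992). XBP1, the factor that IRE1 activates, was higher by 1.31 (adjusted p = 0.00112). QSOX1, a sulfhydryl oxidase, gave 2.05 (adjusted p = 2.15e-05), SDF2L1 1.64 (adjusted p = 0.00117), and SELENOS 1.49 (adjusted p = 0.00013), each in 3 of 3 libraries. The general chaperones HSPA5, HSP90B1 and CALR gave 0.67 (adjusted p = 0.11), 0.65 (adjusted p = 0.128) and 0.59 (adjusted p = 0.247). HSPA5 passed the test in lean goblet cells (adjusted p = 0.0142), without the deepest 5% of epithelial barcodes, with thinning and without the filter on low counts, and HSP90B1 in the last of these. The integrated stress response factors ATF4 and DDIT3 gave 0.30 (adjusted p = 0.478) and 0.24 (adjusted p = 0.586). For transport, KDELR3 and KDELR2, receptors that return ER proteins from the Golgi, were higher by 2.26 (adjusted p = 9.4e-05) and 1.03 (adjusted p = 0.00777), TMED3 by 1.20 (adjusted p = 0.000302) and ERGIC1 by 1.32 (adjusted p = 0.00024). The transport count fell from 16 to 8 without day 0, 7 under DESeq2, 8 without TMM factors and 9 without hormone cells in the reference, and the folding count from 17 to 13, 12, 14 and 14. ERGIC1 was among the calls lost without day 0, while KDELR3, KDELR2 and TMED3 were called in each of these 4 settings.

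In the list of granule storage and exocytosis 14 of 25 tested genes were higher and 2 lower in goblet cells, with a median log2 fold change of 1.38. Without day 0 the counts were 9 and 0 of 23. REP15, a RAB15 effector, was at 214, 81.04 and 13.8 CPM against 3.1, 0.957 and 0 CPM (log2 fold change 6.20 ± 0.25, SE, adjusted p = 4.52e-09). CAPN9, a calpain of the digestive tract, was at 51.99, 27.9 and 36.8 CPM against 0.679, 0.615 and 6.09 CPM (5.80 ± 0.34, SE, adjusted p = 6e-08), and its relative CAPN8 gave -0.04 (adjusted p = 0.972). The secretory GTPases RAB27A, RAB27B, RAB3D and RAB26 were higher by 2.52 (adjusted p = 5.71e-05), 1.92 (adjusted p = 5.05e-06), 2.30 (adjusted p = 9.62e-05) and 2.52 (adjusted p = 7.67e-05), and SYTL2, which ties RAB27 to the membrane, by 3.98 (adjusted p = 6.96e-08). MLPH, melanophilin, which links RAB27 to a myosin motor, was outside the list but among the 10 highest ratios, at 99.1, 52.1 and 59.9 CPM against 1.03, 0.273 and 0 CPM (6.80 ± 0.28, SE, adjusted p = 4.52e-09). BCAS1 was higher by 3.21 (adjusted p = 1.99e-06). Apart from CAPN8, the genes of this paragraph so far were higher in 3 of 3 libraries. The general fusion proteins VAMP8, SNAP23 and STXBP2 gave -0.62 (adjusted p = 0.0738), -0.35 (adjusted p = 0.261) and -0.003 (adjusted p = 0.995). NLRP6, an inflammasome sensor linked to mucus granule release in mice, gave -0.57 (adjusted p = 0.0806) in all goblet cells and -2.52 (adjusted p = 0.000224) in lean ones, where it was lower. The lean selection acted on goblet cells alone, and its part in the lower value of NLRP6 was not tested.

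Of 36 tested regulators of the secretory lineage, 18 were higher and 6 lower. ATOH1, which commits crypt cells to the secretory fate, was at 94.8, 36.1 and 198 CPM against 2.26, 0.273 and 8.12 CPM (log2 fold change 5.62 ± 0.28, SE, adjusted p = 2.05e-08). SPDEF, which drives goblet cell maturation, was at 287, 336 and 318 CPM against 3.98, 1.5 and 24.4 CPM (6.37 ± 0.47, SE, adjusted p = 5.33e-07), and GFI1, which holds back the endocrine fate, at 9.91, 6.45 and 46.1 against 0.873, 0.205 and 0 CPM (4.001 ± 0.44, SE, adjusted p = 2.91e-05). CREB3L4 and FOXA3 were higher by 4.51 (adjusted p = 2.99e-08) and 3.62 (adjusted p = 4.11e-07), and BHLHA15, a factor of secretory capacity also known as MIST1, by 4.39 (adjusted p = 0.000149) on 40 UMIs. Each of these was higher in 3 of 3 libraries. The Notch ligands DLL1 and DLL4 were higher by 1.93 (adjusted p = 0.00181) and 2.45 (adjusted p = 6.11e-05), while JAG1 was lower, at -1.37 (adjusted p = 0.000241), a call lost without day 0. The 6 lower genes were JAG1, the enterocyte factor HNF4G and the endocrine factors NEUROD1, INSM1, PAX4 and PAX6. The limit on CHGA and CHGB in part fixed the endocrine ones, and without hormone cells in the reference NEUROD1 kept its call, INSM1 lost it, and PAX4 and PAX6 had too few UMIs to pass the filter. NEUROD1 was at 2.2, 0.516 and 0 CPM against 81.6, 25.1 and 259.9 CPM (-5.38 ± 0.30, SE, adjusted p = 3.9e-08). NEUROG3, which starts the endocrine fate, gave -0.63 (adjusted p = 0.492), but was called lower without day 1. POU2F3, the tuft cell factor, had 0 UMIs in goblet cells. SOX9, NOTCH1 and MECOM were higher by 1.16 (adjusted p = 0.000381), 1.10 (adjusted p = 0.0167) and 1.37 (adjusted p = 0.000412), but the 3 calls were lost in lean goblet cells.

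Of 22 tested genes of ion and fluid transport, 5 were higher and 9 lower, and without day 0 4 of 21 were higher and 3 lower. SLC12A2, the basolateral chloride importer of secreting cells, was at 521, 489 and 396 CPM against 157, 151 and 225 CPM (log2 fold change 1.53 ± 0.22, SE, adjusted p = 0.000305). CA8, a carbonic anhydrase relative without enzyme activity, was at 107, 39.2 and 111 against 2.26, 0.683 and 14.2 CPM (5.39 ± 0.31, SE, adjusted p = 4.14e-08), LRRC26, a subunit of potassium channels, gave 2.18 (adjusted p = 3.1e-06), and ATP2C2, a calcium and manganese pump of the secretory path, gave 2.29 (adjusted p = 4.22e-06). FXYD3 was higher by 0.92 (adjusted p = 0.019), a call lost without day 0 or day 1. The lower genes included the absorptive exchangers SLC9A3 at -1.72 (adjusted p = 0.000149) and SLC26A3 at -1.45 (adjusted p = 0.000872) and the brush border carbonic anhydrase CA4 at -2.56 (adjusted p = 1.47e-05). CFTR, the chloride channel, gave -0.34 (adjusted p = 0.251) in all goblet cells and was lower in lean ones at -2.01 (adjusted p = 0.000545). The part of the lean selection, which left the other epithelial barcodes unchanged, was not tested.

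In the list of epithelial defence and sensing, 3 of 22 were higher and 9 lower, and without day 0 1 of 19 was higher and 3 lower. CXCL8, the neutrophil attractant interleukin 8, had the largest fold of the 3, at 377, 593 and 134 CPM against 11.7, 60.5 and 60.9 CPM (log2 fold change 3.55 ± 0.48, SE, adjusted p = 0.000148), in 3 of 3 libraries. It had a UMI in 87.5, 98.5 and 64.7% of goblet cells, 8.41, 33.1 and 17.5% of the other epithelial barcodes and 3.05, 12.4 and 1.43% of PTPRC-bearing barcodes. In lean goblet cells the log2 fold change of CXCL8 was 4.38 (adjusted p = 0.000829). CCL20, another chemokine of the epithelium, went the other way, at 50.6, 658 and 13.8 CPM against 218, 1533 and 471 CPM (log2 fold change -2.14 ± 0.38, SE, adjusted p = 0.00139). SLPI, an antiprotease, and PGLYRP2, a peptidoglycan amidase, were lower, at -1.84 (adjusted p = 0.000289) and -2.99 (adjusted p = 5.92e-06). IL17RA and TNFRSF21, the other higher genes, gave 1.48 (adjusted p = 0.00431) and 1.15 (adjusted p = 0.0266) and lost their calls without day 0 and under DESeq2. PIGR, the transporter of secretory immunoglobulin, had 2, 2 and 0 UMIs in goblet cells. Of 16 immediate early and heat shock genes, which can follow tissue dissociation, IER3 alone was called, at 0.79 (adjusted p = 0.0362). Its call ended without day 0, without day 1, without TMM factors, under DESeq2 and in lean goblet cells, while 4 of the 16 were higher without day 3 and 6 with a mitochondrial limit of 10% (EGR1, FOSB, HSPA8, HSPH1, IER2 and IER3), a limit that left 2 libraries. JUN and FOS gave 0.04 (adjusted p = 0.946) and -0.19 (adjusted p = 0.677).

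Of 29 absorptive enterocyte genes tested 28 were lower, and FABP6, the ileal bile acid binding protein, gave -1.85 (adjusted p = 0.183). FABP6 was called lower in lean goblet cells, without day 3, and with at least 20 or at least 0.5% mucin UMIs, but not without day 0 or day 1. For the whole list, 15 of 26 were lower without day 0, and 21 of 29 under DESeq2. The list took 36.1, 112 and 7.55 of each 10000 UMIs in goblet cells, 163, 322 and 15.8 in the other epithelial barcodes, and 7.72, 13.2 and 0.861 in lean goblet cells, whose selection used it. APOA1, the apolipoprotein of absorbing cells, was at 528, 2389 and 4.61 CPM against 2666, 7980.1 and 599 CPM (log2 fold change -2.61 ± 0.44, SE, adjusted p = 0.00092), a call lost under DESeq2. Of 20 hormone cell genes tested, 18 were lower, which the limit on CHGA and CHGB in part fixed. Crypt genes were higher for 6 of 12 and lower for 0, and proliferation genes higher for 18 of 27 and lower for 0. In lean goblet cells, whose selection used OLFM4, the crypt counts became 0 and 4 of 10 and the proliferation counts 0 and 1 of 27, MCM6 being the lower one. MKI67, the proliferation marker, gave 1.09 (adjusted p = 0.00113) in all goblet cells and 0.43 (adjusted p = 0.498) in lean ones, and SMOC2, a stem cell gene, 1.65 (adjusted p = 0.000204) and 0.70 (adjusted p = 0.103). All 18 proliferation calls were lost in lean goblet cells, in goblet cells of at least 0.5% mucin UMIs and without the deepest 5% of epithelial barcodes. The count was 3 without day 0, 4 without day 1, 25 of 28 without day 3 and 6 under DESeq2, and that of crypt genes 1, 1, 11 of 14 and 2.

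Markers of leukocytes were low in goblet cells, which the limit on PTPRC in part fixed. The B lineage list took 0.296, 0.168 and 0.875 of each 10000 UMIs in goblet cells and 12.3, 12.5 and 25.2 in PTPRC-bearing barcodes, and the T and NK list 0.672, 0.225 and 0.415 against 46.2, 14.3 and 4.16. None of the 7 B lineage genes tested was called, and CD247, AIF1, COL1A2, DCN and PECAM1 were the lower genes of the T cell, myeloid and stromal lists. The calls of COL1A2 and DCN ended without day 1 and in lean goblet cells, and that of PECAM1 without day 0, without day 1 and under DESeq2. In lean goblet cells 0 of 4 stromal genes tested were lower, and PECAM1 was not among those tested. Mast cell and erythroid lists had no gene with enough UMIs to test, and their summed levels were at most 0.0921 and 0.0461 per 10000. Of 7 tuft cell genes 3 were lower, TRPM5 at -3.19 (adjusted p = 0.000567).

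**Figure D3:**
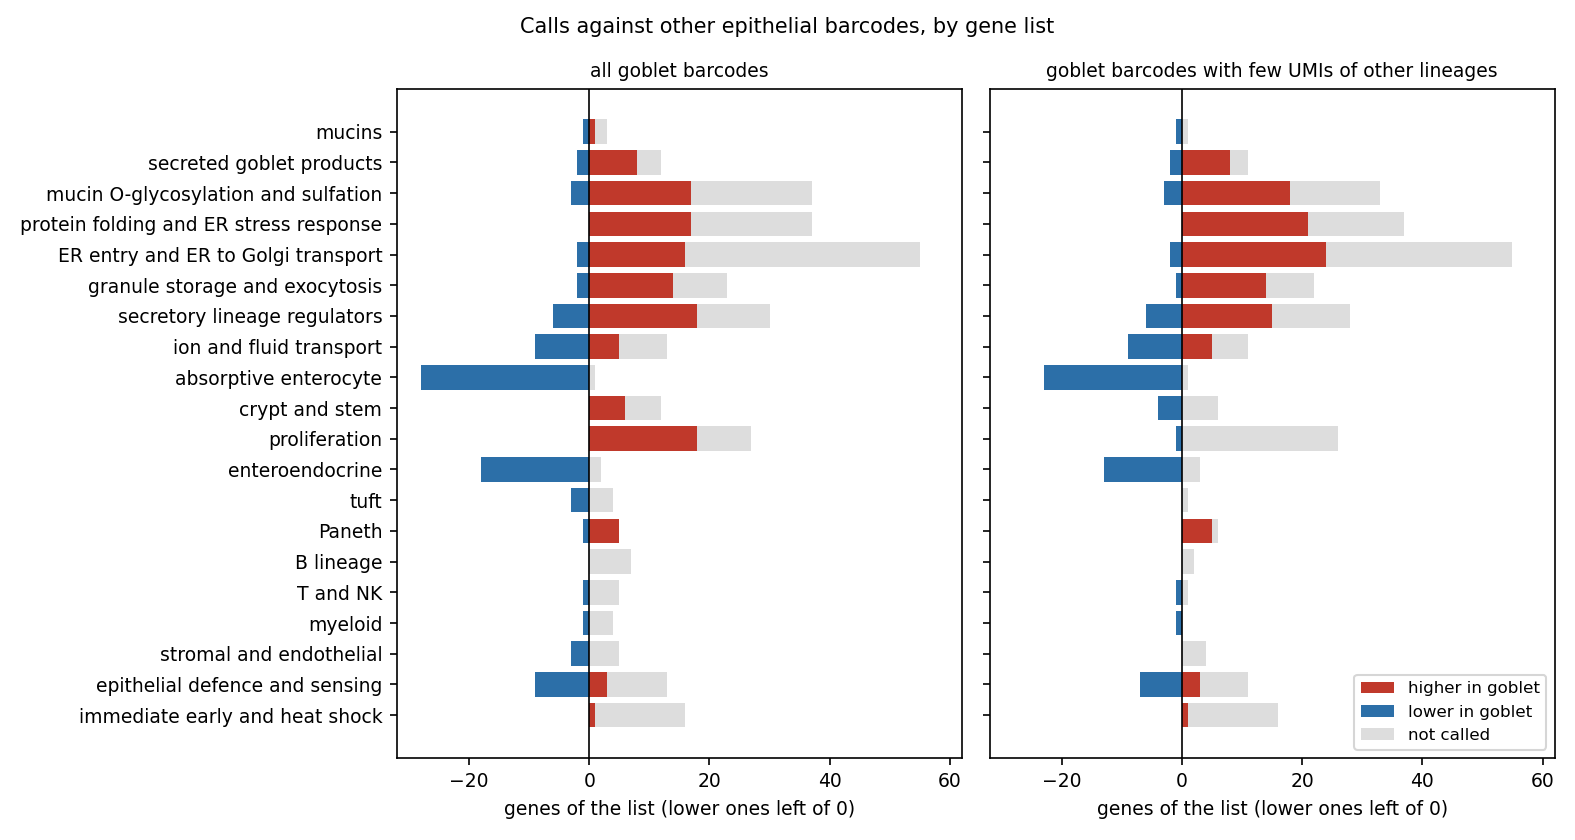
Number of tested genes of each list that were higher (red, right of 0), lower (blue, left of 0) or not called (gray, right of 0) in goblet cells against the other epithelial barcodes, for all goblet cells (left) and for lean goblet cells (right). The proliferation list has 18 higher genes on the left and 0 on the right, whereas the folding list has 17 and 21.

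The 10 highest ratios among called genes seen in 10% or more of goblet cells, pooled over libraries, and with 1 direction in each library were LOC100736733, LOC110255228, BPI, TMEM229A, ST6GAL2, MLPH, LRRC31, ITLN2, ERN2 and FAM3D. LOC100736733 (protein coding, chromosome 4, 89529156 to 89539516, Sscrofa11.1) led, at 2212, 1025 and 4099 CPM against 27.5, 1.03 and 0 CPM (log2 fold change 8.35 ± 0.71, SE, adjusted p = 2.3e-06). RefSeq lists ITLN2, an intelectin, as a synonym of it, although the files hold a separate ITLN2, and LOC110255228 (chromosome 4, 89500704 to 89510405, Sscrofa11.1) is its neighbor, so reads of near-identical copies could have been split between them. LOC110255228 was at 64.6, 7.23 and 18.4 CPM against 0.42, 0 and 0 CPM (7.31 ± 0.37, SE, adjusted p = 2.05e-08), and ITLN2 at 16.02, 12.4 and 32.2 against 0.194, 0.0683 and 0 CPM (6.55 ± 0.43, SE, adjusted p = 1.44e-07). BPI, the bactericidal permeability-increasing protein, was at 385, 131 and 235 CPM against 3.36, 0.205 and 18.3 CPM (6.88 ± 0.50, SE, adjusted p = 4.78e-07), although only 10.1, 8.96 and 17.6% of goblet cells held a UMI of it. FAM3D, a secreted protein of the gut, was at 230.1, 156 and 179.6 against 2.46, 1.44 and 12.2 CPM (6.40 ± 0.33, SE, adjusted p = 2.13e-08), LRRC31 at 24.3, 18.3 and 13.8 against 0.194, 0.273 and 0 CPM (6.58 ± 0.37, SE, adjusted p = 3.9e-08), and TMEM229A, a membrane protein, at 9.3, 12.1 and 64.5 against 0.129, 0 and 0 CPM (6.82 ± 0.53, SE, adjusted p = 8.35e-07).

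The 10 lowest ratios were PENK, GRIA2, LUZP2, TPH1, SLC18A1, SCG2, RPRML, SNAP25, PYY and UCN3, among them hormones and genes of serotonin and neurotransmitter handling. PENK, proenkephalin, had 3, 0 and 0 UMIs in goblet cells against 4646, 723 and 90, a pooled ratio of 485 (counting interval 166 to 2351), and TPH1, the serotonin enzyme, was at 0.245, 1.03 and 4.61 against 66.00, 39.8 and 389.9 CPM (log2 fold change -6.67 ± 0.37, SE, adjusted p = 3.9e-08). Hormone cells were part of the other epithelial barcodes. Without barcodes of at least 10 CHGA and CHGB UMIs among them, 733 genes were higher and 1091 lower. Of the genes named or listed here, 183 kept their calls, and some, PAX4 and PAX6 among them, could not be tested. Another 32 lost their calls. Among these were PCSK1, RFX6, KCTD12 and INSM1, the transport and folding genes DDOST, LMAN1, RPN1, SEC24D, SEC61B, SEC61G, TMED10, PDIA3, PDIA5 and TXNDC5, and TNFRSF21 and IER3.

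The second comparison set goblet cells against the other secretory class, the barcodes with at least 10 UMIs of CHGA and CHGB, fewer than 10 mucin UMIs and at most 1 of PTPRC (544, 97 and 32 at days 0, 1 and 3). Of 10752 genes tested, 705 (6.56%) were higher in goblet cells and 1116 (10.4%) lower. Scaling mattered here: by total UMIs alone, in place of the TMM factors that put the median of all genes at -0.0123, the median lay at -0.229 and the counts were 406 and 1516. Hormone genes were lower for 21 of 22, which the choice of the class fixed in large part. In the list of ER entry and ER to Golgi transport 29 of 57 were higher and 0 lower, and in the folding list 20 of 37 and 1. Without day 0, 2 and 0 of the transport and 3 and 0 of 35 folding genes were called, while over all genes the counts fell to 90 and 261 of 6965. Under DESeq2 they were 9 and 0 and 11 and 0, and without TMM factors 10 and 0 and 12 and 1. Glycosylation genes were higher for 13 of 37 and lower for 1, and without day 0 for 2 and 0 of 25. Here ST6GALNAC1 gave -0.20 ± 0.27 (SE, adjusted p = 0.666) and FUT2 0.48 ± 0.38 (SE, adjusted p = 0.433), whereas GALNT5 gave 5.14 ± 0.45 (SE, adjusted p = 1.46e-05) and CHST4 4.06 ± 0.45 (SE, adjusted p = 8.47e-05). In the granule list 8 of 24 were higher and 4 lower, and without day 0 2 and 3 of 18. REP15 was at 214, 81.04 and 13.8 CPM in goblet cells and 11.3, 11.4 and 0 CPM in granin-high barcodes (4.04 ± 0.33, SE, adjusted p = 8.68e-06), RAB26 gave 0.18 ± 0.20 (SE, adjusted p = 0.599), and the lower genes included SYT13, SYT7 and VAMP2. Absorptive enterocyte genes were higher for 1 of 25 and lower for 3. Their list took 36.1, 112 and 7.55 of each 10000 UMIs in goblet cells and 45.9, 101.5 and 14.1 in granin-high barcodes.

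The 10 highest ratios of goblet cells over granin-high barcodes were MLPH, LOC110255228, LOC100736733, RETNLB, LRRC31, ITLN2, FAM3D, KCNA6, ATOH1 and BPI. MLPH had 810, 202 and 13 UMIs in goblet cells and 0 in granin-high barcodes of each library, so it was at least 128-fold higher against a floor of 3 UMIs over the 3 libraries. By the same floor LOC110255228 was at least 70.2-fold, LRRC31 34.2-fold, ITLN2 23.3-fold and KCNA6, a potassium channel, 15.8-fold higher. ATOH1 had 775, 140 and 43 UMIs in goblet cells against 2, 0 and 0, a pooled ratio of 180.1 (counting interval 49.7 to 1489). RETNLB was at 2813, 1223 and 12099.9 CPM against 9.03, 3.43 and 0 CPM (log2 fold change 9.17 ± 0.59, SE, adjusted p = 1.21e-06), and SPDEF at 287, 336 and 318 against 4.23, 2.29 and 0 CPM (6.63 ± 0.34, SE, adjusted p = 2.13e-07). GUCA2A, whose call against the other epithelial barcodes depended on the setting, was higher than in granin-high barcodes at 1793, 640.1 and 15016 against 215, 91.4 and 159 CPM (4.21 ± 0.69, SE, adjusted p = 0.00136). The lowest ratios included PENK, GRIA2, CYP2C49, STMN2, LUZP2, SNAP91, RIPPLY2, TPH1 and KCNH6. STMN2, SNAP91, RIPPLY2 and KCNH6 had 0 UMIs in goblet cells of all 3 libraries, and STMN2, a neuronal tubulin regulator, was at least 457-fold lower by the same floor. Of 16 immediate early and heat shock genes, 5 were lower (ATF3, DUSP1, FOS, JUNB and JUND) and 1 higher, IER3. None of these 6 calls held without day 0, and those of ATF3, DUSP1, JUNB and JUND also ended without day 1.

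Days 0 and 1 had enough goblet cells, 536 and 134, to be set side by side as 2 libraries, without a test. Of 10052 genes with at least 50 UMIs in both sums together, 610 (6.07%) were at least 2-fold higher at day 1 and 344 (3.42%) at least 2-fold higher at day 0, and the median log2 ratio of day 1 over day 0 was 0.109. By TMM factors, which put that median at 0.00266, the counts were 489 and 430. In lean goblet cells they were 229 and 277 of 7152, of which 123 and 108 were among the first. Of 24 absorptive enterocyte genes assessed, 18 were at least 2-fold higher at day 1 and 0 at day 0. Their summed level went from 36.1 to 112 per 10000 UMIs in goblet cells and from 163 to 322 in the other epithelial barcodes. In lean goblet cells it went from 7.72 to 13.2, but their selection held this list under 50 per 10000 in each cell. The share of UMIs from the same genes in barcodes of 100 UMIs or fewer, taken as free RNA, went from 72.6 to 121 per 10000, and its part in the result was not tested.

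REG3G was among the genes with the highest ratio of day 1 over day 0. It stood at 27.5 CPM at day 0 and 3272 CPM at day 1 (225 and 12678 UMIs), a ratio of 119 (counting interval 104 to 136), and at 0.746% and 54.5% of goblet cells with 10 or more UMIs. In lean goblet cells the ratio was 382, with 10 or more UMIs in 1 of 420 and 36 of 73 cells, and in the other epithelial barcodes 27.2, with 3.53% and 38.5% at 10 or more. Of 17 goblet cells of day 3, 0 held 10 UMIs of REG3G. Free RNA contained it as well, at 36.3 and 909.9 CPM in barcodes of 100 UMIs or fewer, and 11.04% of PTPRC-bearing barcodes of day 1 held a UMI of it and 0.0836% held 10. Its neighbors on chromosome 3, LOC100520832 and LOC100624628, had high ratios too. LOC100520832 (chromosome 3, 64792665 to 64795666, Sscrofa11.1) stood at 4.77 CPM at day 0 and 2338 CPM at day 1 (ratio 490.1, counting interval 358 to 689.7), and LOC100624628 had 0 and 118 UMIs, at least 82.99-fold higher at day 1 against a floor of 3 UMIs. Shared reads between these adjacent genes were not examined.

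The other genes among the 10 highest ratios of day 1 over day 0 were LOC102160380, TGM3, GPX2, SMPDL3B, DMBT1, HERC5 and NEUROG3. TGM3, a transglutaminase found in mucus, stood at 7.83 CPM at day 0 and 182 CPM at day 1 (ratio 23.2, counting interval 17.95 to 30.5), with 10.2 in the other epithelial barcodes and 55.6 in lean goblet cells. GPX2, the glutathione peroxidase of the gut, gave 22.4 (11.7 to 47.99), SMPDL3B, a membrane phosphodiesterase, 22.1 (17.3 to 28.8), and DMBT1 21.3 (17.3 to 26.6). The ratios in lean goblet cells were 8.33 (5 and 11 UMIs) for GPX2, 54.9 (2 and 29 UMIs) for SMPDL3B and 11.004 (21 and 61 UMIs) for DMBT1. For each of these genes the ratio in the other epithelial barcodes was above 2 as well, at 19.3, 17.5 and 9.18. DUOX2 and DUOXA2, the peroxide-producing oxidase and its partner, had 0 and 0 UMIs at day 0 and 15 and 19 at day 1, too few for the ratio. The 45 UMIs of NEUROG3 at day 1 came from 3 goblet cells, so this ratio described those cells.

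Of 14 secreted products assessed, 5 were at least 2-fold higher at day 0 and 3 at day 1. RETNLB stood at 2813 CPM at day 0 and 1223 CPM at day 1, 2.3 times higher at day 0 (counting interval 2.23 to 2.37), AGR2 at 7829.5 CPM at day 0 and 3543 CPM at day 1 (2.21, 2.17 to 2.25), and SPINK4 at 6350.4 CPM at day 0 and 3154 CPM at day 1 (2.01, 1.97 to 2.05). GUCA2A stood at 1793 CPM at day 0 and 640.1 CPM at day 1 (2.8, 2.68 to 2.92), while in the other epithelial barcodes it was 1.58 times higher at day 1. In lean goblet cells the ratios of day 0 over day 1 were smaller, at 1.61 for RETNLB, 1.49 for AGR2, 1.5 for SPINK4 and 1.69 for GUCA2A, all under the 2-fold limit. TFF3 was 1.61 times higher at day 0 in all goblet cells and 1.12 times in lean ones. REP15 was 2.64 times higher at day 0 (2.34 to 2.99) and 2.15 times in lean goblet cells, and LOC110255228 8.94 times (6.11 to 13.6) and 5.28 times. ATOH1 was 2.62 times higher at day 0 (2.19 to 3.16) and 1.9 times in lean goblet cells, under the 2-fold limit, whereas SPDEF was at 287 CPM at day 0 and 336 CPM at day 1.

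The 10 highest ratios of day 0 over day 1 were NTS, PYY, SMPX, PTN, GCG, CALCB, LOC100511828, COL3A1, L3MBTL1 and CXCL14, and for 5 of them 1 barcode held a large part of the UMIs. Of the 3194 UMIs of the hormone NTS at day 0, 84.8% came from 1 goblet cell barcode, as did 95.7% of those of PTN, 85.2% of GCG, 57.6% of PYY and 47.6% of COL3A1. The ratio of NTS, 108 (64.3 to 198), included that barcode. For the other 5 genes the highest barcode held at most 29.4% of the UMIs. Enteroendocrine genes were at least 2-fold higher at day 0 for 6 of 8 assessed, and the list took 49.3 of each 10000 UMIs of free RNA at day 0 and 11.4 at day 1.

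**Figure D4:**
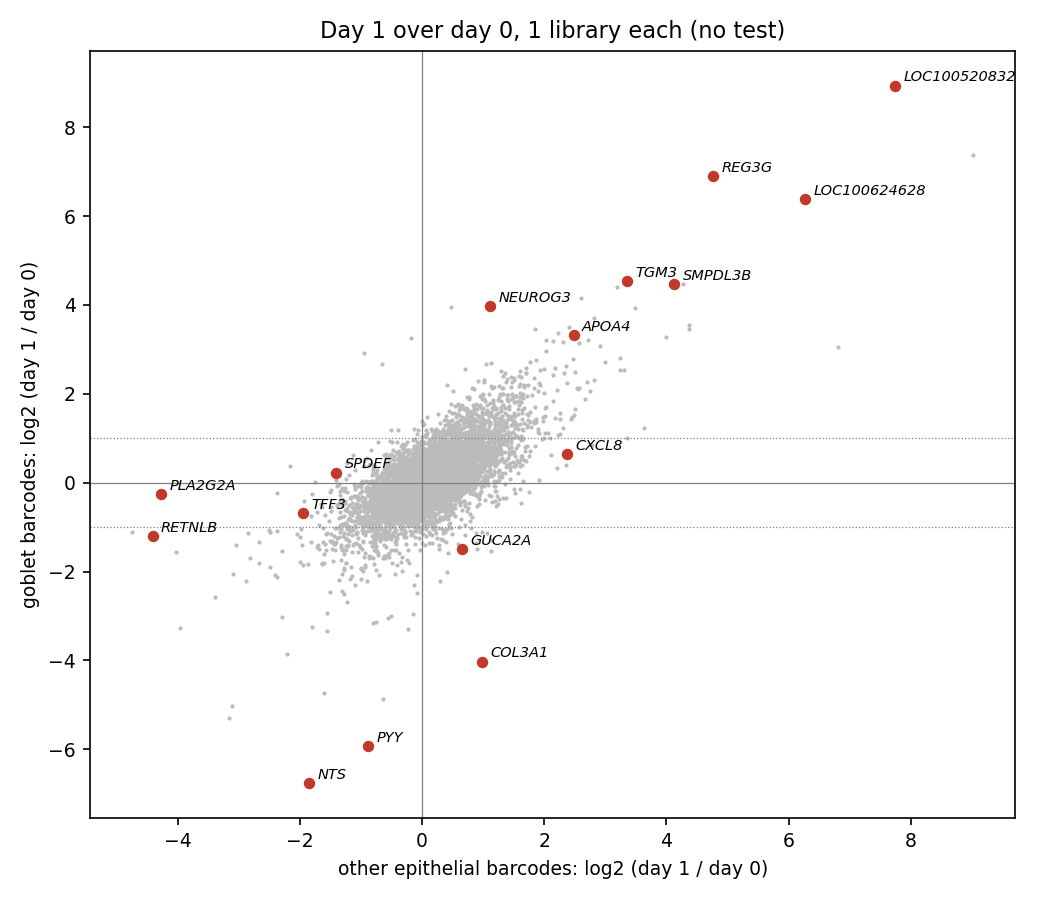
Each point is a gene, with the log2 ratio of day 1 over day 0 in the other epithelial barcodes on the horizontal axis and in goblet cells on the vertical axis, dotted lines at a 2-fold ratio in goblet cells, and named genes in red. There is 1 library for each age and no test. REG3G and LOC100520832 lie high on both axes, with ratios of 119 and 490.1 in goblet cells, NTS lies lowest, and GUCA2A lies below 0 in goblet cells and above 0 in the others.

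The 17 goblet cells of day 3 are too few for a ratio between ages, and their values are given as such. Their mitochondrial share was 12.3% at the median, against 4.98% and 6.43% at days 0 and 1. The median of RETNLB was 110.0 per 10000 UMIs against 18.05 and 6.38, that of GUCA2A 136 against 9.14 and 1.57, and that of AGR2 228 against 99.5 and 35.9. The median of TFF3 was 208 per 10000. RETNLB and GUCA2A had a UMI in each of the 17 cells, and REP15 in 2 of them, against 84.5% and 70.9% at days 0 and 1. MKI67 or TOP2A, markers of dividing cells, had a UMI in 7 of 17 (41.2%), against 12.5% and 17.9% of goblet cells at days 0 and 1, and 1 of the 17 held 10 UMIs of both together. Other barcodes moved the same way, since a UMI of either was present in 5.88%, 6.69% and 23.7% of PTPRC-bearing and 9.70%, 9.54% and 22.8% of other epithelial barcodes, and the proliferation list took 15.1, 13.2 and 35.6 of each 10000 UMIs of free RNA. The part of free RNA and depth in the day 3 share was not tested.

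Within a library, goblet cells shared some products and divided over others. AGR2, SPINK4 and TFF3 were spread over nearly all cells, and 400 of 536, 96 of 134 and 13 of 17 cells together held 90% of the TFF3 UMIs. Others were carried by a minority. LOC100736733 had a UMI in 49.8, 50 and 29.4% of goblet cells, with 90% of its UMIs in 131, 31 and 4 cells, and a highest value of 318, 198 and 221 per 10000 UMIs. LOC100739218 (chromosome 2, 149400864 to 149406484, Sscrofa11.1), which lies between SPINK5 and SPINK14, had a UMI in 23.3, 27.6 and 94.1% of goblet cells, and its log2 fold change against the other epithelial barcodes was 3.83 ± 0.31 (SE, adjusted p = 1.36e-06). LOC100517891 (chromosome 4, 91156489 to 91160508, Sscrofa11.1), between FCER1A and ACKR1, was found in 55, 27 and 10 goblet cells (10.3, 20.1 and 58.8%) at up to 194, 194 and 464 per 10000 UMIs, with a log2 fold change of 6.23 ± 0.38 (SE, adjusted p = 6.54e-08). Both loci were named after their values had been seen.

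BPI was found largely in the cells that held LOC100517891. A BPI UMI was present in 33 of 55, 10 of 27 and 3 of 10 goblet cells with the locus and in 21 of 481, 2 of 107 and 0 of 7 without it. The cells with the locus were deeper, at a median of 17759, 24965 and 14512 UMIs against 7813, 14121 and 10997, and the part of depth in this was not tested. CXCL8 was present in most goblet cells but unevenly, with a median of 5.01, 5.85 and 0.679 and a highest value of 53.1, 68.7 and 4.82 per 10000 UMIs. GUCA2A was concentrated further, with 90% of its UMIs in 196 of 536 cells at day 0 and 33 of 134 at day 1.

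**Figure D5:**
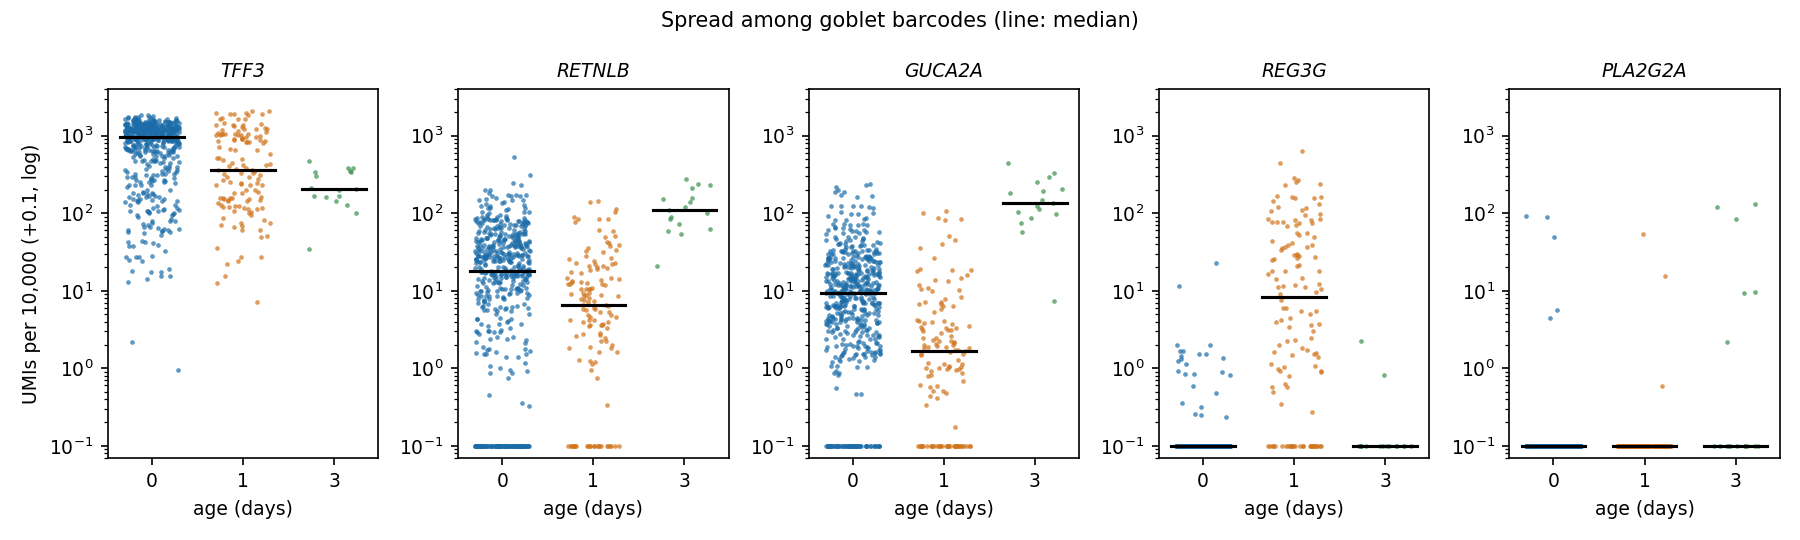
Each point is a goblet cell, with its level in UMIs per 10000 plus 0.1 on a log axis, against age in days for 5 genes, and a line marks the median. TFF3 is above 0 in every cell, the medians of RETNLB and GUCA2A are highest at day 3, the median of REG3G is above 0 at day 1 alone, and PLA2G2A is at 0 in most cells with a few near 100.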

How the data were processed

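The authors deposited 1 matrix of UMI counts for each of the 6 libraries, made with Cell Ranger 3.1.0, STAR and the susScr11 genome build per the submitters' processing notes, with no normalization. The library totals were 77391932 to 100348769 UMIs. The labels and the study's methods name different versions of the library kit. Barcodes were classed by fixed UMI limits, and members and gene lists were chosen with earlier results of these data known. Genes of the rule entered the fits but neither the adjustment nor the counts of calls. Counts were summed per library and class for days 0, 1 and 3 and tested with edgeR 4.0.16 in R 4.3.3 (TMM factors, filterByExpr, quasi-likelihood test, library as a block, 2 residual degrees of freedom) with Benjamini-Hochberg adjustment and a threshold of 0.05. DESeq2 1.42.0 was an alternative. The fits were also run on simulated data, in which all genes had the same dispersion and each changed gene the same fold in every library. That run does not cover genes whose ratios differ between libraries. Named genes were the list members, the 10 largest folds in each direction among called genes with the same direction in every library and a UMI in 10% of the higher class, the 10 largest age ratios in each direction, and the rule genes and TFF3. Age ratios compared summed counts of 1 library each, with exact intervals that cover counting error only. No doublet caller was run. Alternatives changed the mucin, PTPRC, mitochondrial and depth limits, the filter, the scaling and the tool. How piglets were combined in a library is not given in the sources used here, so p-values take 3 libraries of different ages as replicates. They rest on variance estimates for which edgeR drew on all genes together. A p-value therefore does not measure the spread of a gene's own 3 library ratios alone. Python 3.11.15 with numpy 2.4.6, scipy 1.17.1 and pandas 2.3.3 was used for the tables. Some genes that met the rule for named genes are not reported here.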

Additional observations from a re-analysis of the deposited data

Results flagged for a closer look

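Signals were also present in barcodes that the goblet cell rule left out. At least 10 UMIs of MUC2, FCGBP and CLCA1 were found together with at least 10 of CHGA and CHGB in 24 barcodes (23 at day 0, 1 at day 1 and 0 at day 3). Those that met the limits of the other epithelial barcodes stayed in that class. The highest mucin count of that class was 258, 379 and 7 UMIs at days 0, 1 and 3. At least 10 mucin UMIs were found with at least 2 UMIs of PTPRC in 82 barcodes (60, 18, 3 and 1 at days 0, 1, 3 and 7), and in barcodes with 25% or more mitochondrial UMIs in 51 (28, 14 and 9 at days 0, 1 and 3). Whether these held more than 1 cell was not tested.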

How the results depend on the processing

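Against the other epithelial barcodes, the counts of higher and lower genes were 410 and 548 under DESeq2, 25 and 6 without the library block, 317 and 334 of 4498 with barcodes thinned to 1000 UMIs, 1261 and 1579 with a mitochondrial limit of 10%, which left 2 libraries, and 229 to 1482 and 214 to 1731 when each library was left out. Against granin-high barcodes, higher genes numbered 334 under DESeq2, 1233 without the filter on low counts, 406 without TMM factors, 150 without the library block, and 90 to 1031 when each library was left out, and lower genes 677 under DESeq2, 551 without the block and 261 to 1438. Age counts were 90 and 122 of 1586 with thinning, 229 higher at day 1 in lean goblet cells, and 608 higher at day 0 with a minimum of 20 UMIs. The goblet share of day 0 was 24.9% with a mitochondrial limit of 10% and those of days 0, 1 and 3 were 15.9%, 8.75% and 6.76% with mucin at 1% or more of the UMIs and 15.6%, 8.98% and 6.76% with that limit and thinning together. That of day 7 was 0% with the limit of 1%, with at least 20 mucin UMIs, with a mitochondrial limit of 10%, or with at least 2000 UMIs. Log2 fold changes turned negative in lean goblet cells for AURKB (-0.0687), CD44 (-0.0402), CDK1 (-0.0571), EPHB2 (-0.0147), MCM2 (-1.07), MECOM (-0.242) and RRM1 (-0.195), in goblet cells of at least 0.5% mucin UMIs for BIRC5 (-0.0911), CD44 (-0.173), MCM2 (-0.558), MECOM (-0.349), NOTCH1 (-0.275), RRM1 (-0.290) and RRM2 (-0.0571), without the deepest 5% of barcodes for BIRC5 (-0.0967) and MCM2 (-0.0543), and with thinning for CENPF (-0.143). The lean, 0.5% and unthinned 1% limits were chosen after seeing the data, and the causes of these changes were not tested. The 17 goblet cells of day 3 held 217109 UMIs in all.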

Other observations

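Several abundant genes outside the lists were also higher in goblet cells, and they are named here after their values were seen. The values are from edgeR's quasi-likelihood test with Benjamini-Hochberg adjustment, and each gene was higher in 3 of 3 libraries. MSMB, a secreted protein first known from prostate fluid, stood at 2006, 1751 and 1852 CPM at days 0, 1 and 3, against 103, 129 and 91.4 CPM in the other epithelial barcodes (log2 fold change 4.19 ± 0.27 SE, adjusted p = 1.12e-07). FCN2, a ficolin that binds microbial sugars, stood at 7683, 2189.7 and 33467 CPM at days 0, 1 and 3, against 2353, 989 and 9893 CPM in the other epithelial barcodes (1.62 ± 0.24 SE, adjusted p = 0.000294). CFB, complement factor B, stood at 642, 458 and 2271 CPM at days 0, 1 and 3, against 78.9, 128 and 497 CPM in the other epithelial barcodes (2.44 ± 0.27 SE, adjusted p = 2.47e-05), and AREG, the growth factor amphiregulin, at 463, 180.4 and 32.2 CPM at days 0, 1 and 3, against 42.7, 78.7 and 8.12 CPM in the other epithelial barcodes (2.32 ± 0.39 SE, adjusted p = 0.00089). S100A6, a calcium-binding protein, stood at 1949, 1134 and 2888 CPM at days 0, 1 and 3, against 175, 196 and 487 CPM in the other epithelial barcodes (2.94 ± 0.26 SE, adjusted p = 3.18e-06).

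FCN2 and AREG were 3.51 and 2.57 times higher at day 0 than at day 1 in goblet cells, with 1 library for each age and no test. In the other epithelial barcodes the ratio of FCN2 was 2.38 in the same direction, whereas AREG was 1.84 times higher at day 1.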
